A study of Homo sapiens with 6 samples.

Results

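The genes described here are 36 monocyte and macrophage surface and effector genes, taken by symbol from a list of monocyte, macrophage, Fc receptor, Toll-like receptor and NADPH oxidase genes. Each of the 36 matched 1 of the 60660 gene IDs in the files, and 35 had enough reads to be tested. They were read in RNA-seq libraries of OCI-AML3, a line grown from a human acute myeloid leukaemia. 3 control libraries came from cells with an empty lentiviral vector and 3 from cells overexpressing SLC2A3, the gene of the glucose transporter GLUT3. Every culture, the empty vector controls included, received 250 µM vitamin C. The labels name neither the promoter of the construct nor whether the cells are clones or pools. Whether replicates came from separate cultures is not stated either, and the spread that the p-values rest on may therefore be technical. The comparison asks how the monocyte genes of this line differ between cells with and without added GLUT3.

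Monocytes and macrophages recognise microbes through CD14, Toll-like receptors and C-type lectins, and bind antibody-coated particles through Fc receptors. Among these, FCGR1A signals by the adaptor FCER1G, and TYROBP is a related adaptor. They adhere through β2 integrins, in which different α subunits pair with the shared subunit ITGB2. They kill with lysosomal proteins and with the phagocyte NADPH oxidase, in which the membrane pair CYBB and CYBA is switched on when cytosolic subunits such as NCF1 and NCF4 join it. Inhibitory receptors such as SIRPA and the LILRB family hold these responses in check.

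Of the 35 tested members, 1 rose and 1 fell in the SLC2A3 group. FCN1, which encodes the secreted lectin ficolin-1, rose 1.66-fold at a low level. NCF1, the organiser subunit of the oxidase, fell by 0.23 on the log2 scale at a high level. The other 33 did not pass the test, limma on log2(normalised reads + 1) with Benjamini-Hochberg adjustment over all 28015 genes tested and a threshold of 0.05. Over all genes tested, 0.692% were called higher and 0.8% lower, or 1.49% in either direction. edgeR on the recovered reads called the same 2 members and 3.29% of its genes (1.53% higher, 1.76% lower). Without adjustment, 8 of the 35 members had a limma p under 0.05, against 11.8% of all genes tested. Calls were more frequent among abundant genes: of the 5788 genes with at least 1000 normalised reads in both groups 5.27% were called, against 1 of the 21 members at that level. There, 5 of the 21 members had an unadjusted limma p under 0.05, against 26.2% of genes. The limit of 1000 was chosen after the values were seen. Bulk RNA cannot tell fewer cells of a type from less RNA per cell. The members' median log2 fold change was -0.0053, with 17 members above 0 and 18 below, and the median of all genes tested was 0.0014.

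The read numbers were high enough to bound most of these differences. For 29 of the 35 members the 95% interval of the fold change lay within 1.5-fold in either direction, and for 19 within 1.2-fold. The 6 members outside the wider bound were FCN1, CD163, FCGR2B, CLEC7A, MPEG1 and CD68, all of them low. The groups did not overlap for 11 of the 35 members, against 16.3% of all genes tested. Of these, 5 were higher in the SLC2A3 group (8.04% of all genes) and 6 lower (8.27%). At 1000 normalised reads or more this held for 8 of 21 members, against 29.8% of genes at that level.

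**Figure D1:**
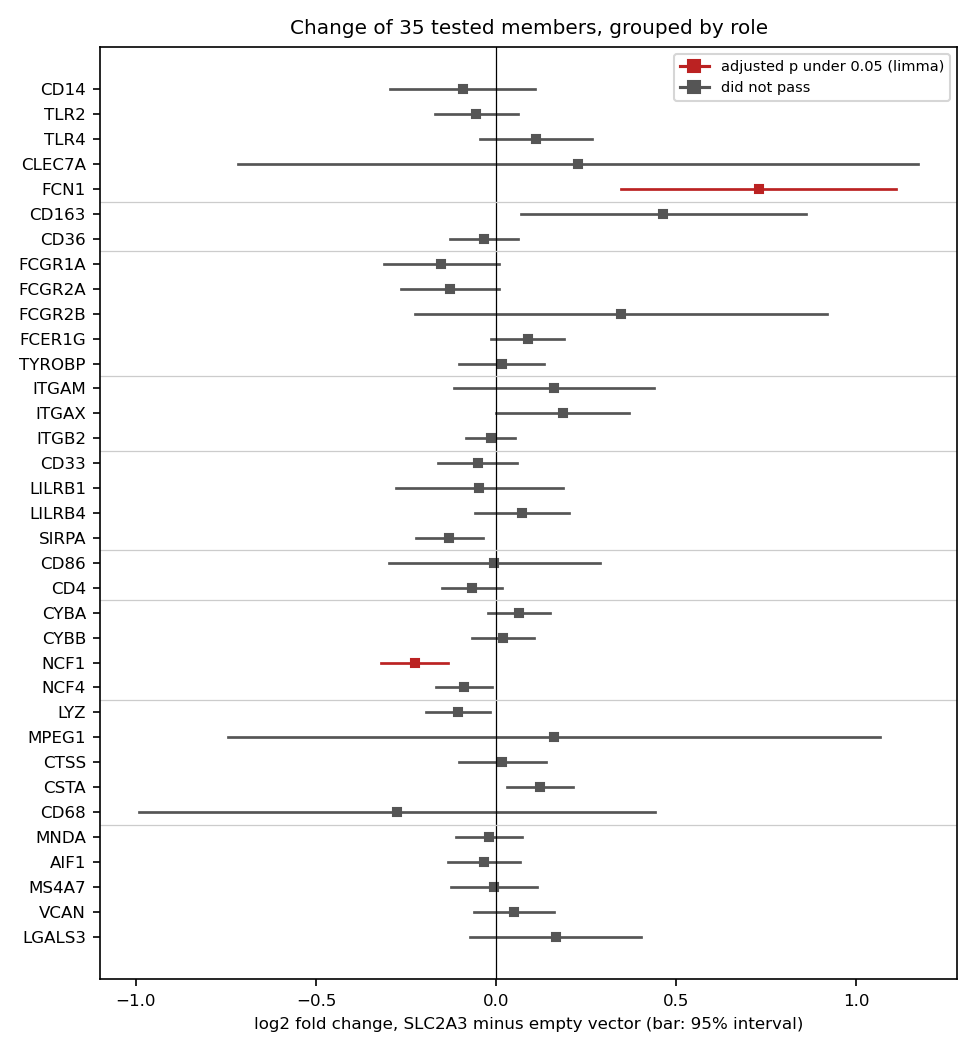
Log2 fold change (SLC2A3 minus empty vector, x axis) of the 35 tested members, grouped by role from top to bottom; squares are limma estimates and bars their 95% intervals. Only FCN1 (0.73) and NCF1 (-0.23) are drawn as past the threshold, and the widest bars belong to members with few reads such as CLEC7A and MPEG1.

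Depth was 31054462 to 35770556 recovered reads per library. SLC2A3 itself stood at 1194, 1183 and 1257 normalised reads in the control libraries and 4056, 3716 and 4054 in the SLC2A3 libraries, so the overexpressed gene fitted the labels. The noncoding RNA RN7SL1 was highest in replicate 2 of each group, ranging from 538 to 1812 normalised reads in the control group and from 1922 to 6026 in the SLC2A3 group. Of 8 myeloid blast markers 7 averaged at least 10 normalised reads, with the myeloid factor genes SPI1 and CEBPA at 14900.5 ± 612 and 9930 ± 296 (SD, n = 3) in the control group, and KIT was near 0. Markers of mature neutrophils (FCGR3B), T cells (CD3D, CD3E), B cells (MS4A1) and erythroid cells (HBA1, HBB) were at 0 in all 6 libraries. The summed level of 8 epithelial and fibroblast markers was 50.1 to 62.0 in the control libraries and 81.7 to 113 in the SLC2A3 libraries, and its part in the results was not tested. None of the 8 marker lists held a gene past the threshold.

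To compare genes with each other, values were divided by the merged exon length in kilobases and scaled to the same total in every library, as TPM. On this scale 13 members reached at least 100 TPM and 24 at least 10. NCF4, a cytosolic oxidase subunit, was the highest at 1138 TPM (range over the 6 libraries 1060 to 1210). The first place turned with the length used: by the longest annotated transcript CYBA led at 1154 TPM and NCF4 was second at 897. ITGB2 followed at 712, the oxidase subunit CYBA at 662, the bacteriolytic enzyme gene LYZ at 582 and the cystatin gene CSTA at 471. The order is coarse, since the ranges of 20 of the 35 pairs of neighbours in it overlapped, ITGB2 with CYBA and CSTA with FCER1G among them. Among the 8 highest by merged exon length, NCF4, LYZ, FCER1G, MNDA and AIF1 each stood clear of the next lower member. This too turned with the length used. By the longest annotated transcript LYZ (494 TPM) fell below CSTA (579) and FCER1G (540), and AIF1 (231) fell below TYROBP (270).

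The bottom of the order held several genes that textbooks list as macrophage markers. The mannose receptor gene MRC1 had 0 reads in all 6 libraries, which at 3 reads per library allows a level of up to 2.79 to 3.20 normalised reads, for counting error only. MPEG1, a pore-forming protein of phagosomes, stood at 0.413 TPM, the β-glucan receptor gene CLEC7A at 0.345 and the scavenger receptor gene CD163 at 2.51. CD68, a lysosomal glycoprotein, stood at 1.32 TPM, with 94 reads in the control group and 79 in the SLC2A3 group. Its value is uncertain because 92.6% of the 50-base words of its longest coding transcript also occur in ENSG00000264772, an overlapping gene on the same strand, and the sources used here do not say how such reads were counted. That gene itself had 7.72 ± 1.55 against 11.7 ± 4.61 normalised reads. Genes typical of monocytes were spread over the order as well, from LYZ at 582 TPM through CD14 at 23.2 and VCAN at 18.9 to ITGAM at 3.58 and FCN1 at 2.11.

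**Figure D2:**
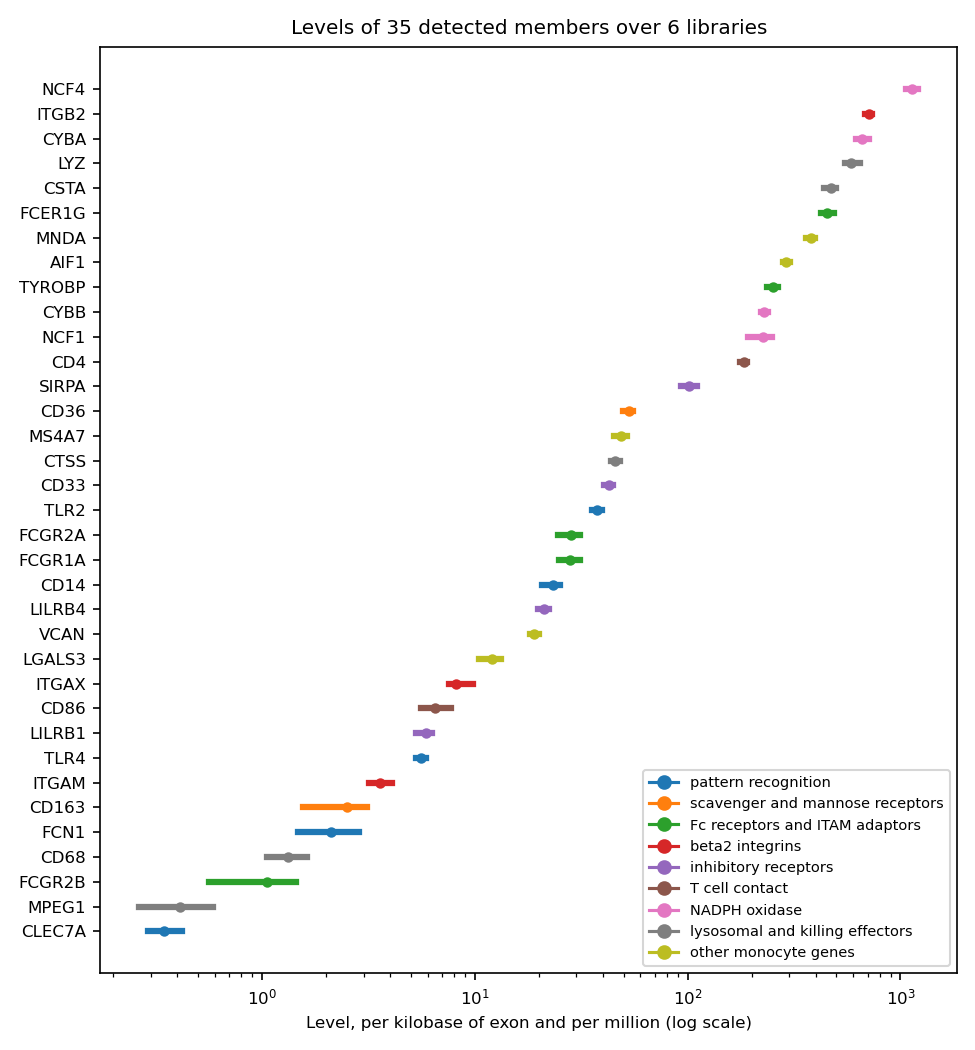
Level of each of the 35 detected members, in TPM (per kilobase of merged exon), on a log axis; points are means over the 6 libraries, bars run from the lowest to the highest library and colours give the role. By this length NCF4 leads at 1138 (by the longest transcript CYBA leads at 1154), CLEC7A is lowest at 0.345 and MRC1, at 0 in every library, cannot be drawn.

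Among the oxidase genes, NCF1 (ENSG00000158517.15, chromosome 7, 74773962 to 74789315, GRCh38) fell in the SLC2A3 group. Its normalised reads were 8192, 8498 and 8272 in the control libraries and 7276, 7435 and 6648 in the SLC2A3 libraries. All 3 SLC2A3 libraries lay below all 3 controls, and replicate 3 was the lowest. The means were 8320 ± 159 and 7120 ± 416 (SD, n = 3), a log2 fold change of -0.23 (SE 0.045, 95% interval -0.32 to -0.13, limma adjusted p = 0.00541). Without SLC2A3 overexpression replicate 3, the log2 fold change was -0.18 and the call was lost (limma adjusted p = 0.109).

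NCF1 has 2 near-identical pseudogene copies, NCF1B and NCF1C, so its reads could be divided among the 3 genes. Of the 50-base words of the longest NCF1 coding transcript, 84.5% also occur in transcripts of other genes, 68.9% in NCF1B and 68.7% in NCF1C. The stretch below is shown because it holds the best-known difference between them. It lies in the NCF1 coding sequence across exons 1 and 2, plus strand, between positions 74774079 and 74777293 of chromosome 7 in GRCh38, and was read from GENCODE 29 transcripts. The capitals mark a TG repeat, present as 2 units in NCF1 and 1 unit in both copies; the shorter form shifts the reading frame.
NCF1: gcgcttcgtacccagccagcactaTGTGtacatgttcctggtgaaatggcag
NCF1B: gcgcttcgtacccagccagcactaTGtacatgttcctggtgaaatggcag
NCF1C: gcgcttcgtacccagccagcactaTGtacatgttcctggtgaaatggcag
Apart from the capitals the 3 stretches are the same letters, so a read that misses the repeat cannot be placed by this stretch.

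Both copies were lower in the SLC2A3 group without passing the test. NCF1C stood at 6008, 6246 and 5994 normalised reads in the control libraries and 5263, 5673 and 5370 in the SLC2A3 libraries, a log2 fold change of -0.16 (limma adjusted p = 0.0715). NCF1B stood at 2624, 3001 and 2826 against 2474, 2522 and 2445, a log2 fold change of -0.18 (limma adjusted p = 0.112). In neither did the groups overlap. Summed over the 3 genes, the values were 16823, 17745 and 17092 in the control libraries and 15013, 15630 and 14463 in the SLC2A3 libraries. The sum does not depend on how reads were divided among the genes only if each shared read was counted once, which is not stated. The summed log2 difference was -0.20 (exact two-sided permutation test, p = 0.1, the smallest that 3 against 3 allows). NCF1 made up 48.3% ± 0.406 of the sum in the control group and 47.3% ± 1.27 in the SLC2A3 group (SD, n = 3, exact permutation p = 0.3).

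The other oxidase members did not pass. NCF4, which binds the same cytosolic complex, stood at 20156, 20973 and 20268 normalised reads in the control libraries and 20113, 18666 and 18982 in the SLC2A3 libraries (log2 fold change -0.09, 95% interval -0.17 to -0.01, limma adjusted p = 0.327). CYBA, the smaller membrane subunit, stood at 20510, 22740 and 21422 against 21883, 23969 and 21781. CYBB, the catalytic subunit, stood at 10422, 9690 and 9870 against 9713, 10165 and 10506. The groups overlapped for both membrane subunits, whose log2 fold changes were 0.06 (95% interval -0.02 to 0.15) and 0.02 (-0.07 to 0.11). The ratio of NCF4 to NCF1 was 2.46, 2.47 and 2.45 in the control libraries and 2.76, 2.51 and 2.85 in the SLC2A3 libraries. These groups did not overlap (exact permutation p = 0.1, adjusted p = 0.3 over 9 ratios). The ratio of CYBB to CYBA overlapped between groups, at 0.465 ± 0.0412 and 0.450 ± 0.0296.

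Of 11 further genes of the oxidase and of peroxide handling, 0 passed the test by limma, edgeR or DESeq2. Without adjustment 1 of the 11 had a limma p under 0.05, against 11.8% of all genes. It was the superoxide dismutase gene SOD1 (log2 fold change 0.10). RAC2, the GTPase that completes the complex, and CYBC1, a chaperone of CYBB, were abundant, at 9276 ± 240 and 8986 ± 348 in the control group.

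**Figure D3:**
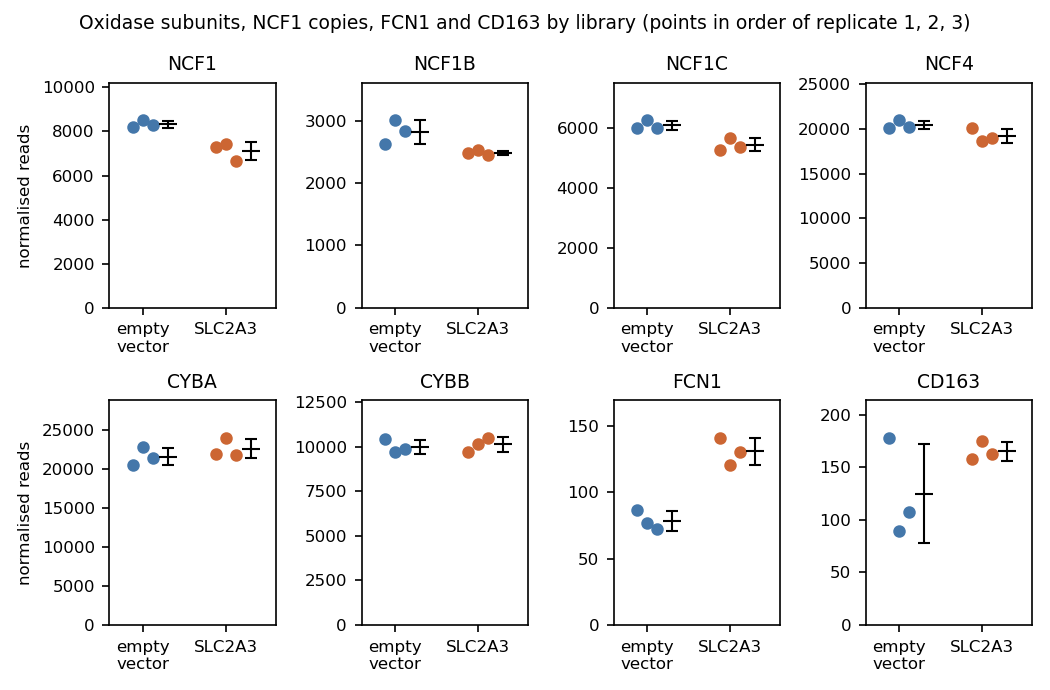
Normalised reads (y axis, from 0) of the oxidase members, the 2 NCF1 copies, FCN1 and CD163 in each library; points are replicates 1, 2 and 3 from left to right in each group, and the bars beside them are mean ± SD (n = 3). The SLC2A3 points of NCF1, NCF1B and NCF1C lie below the control points, those of FCN1 lie above them, and in CD163 empty vector replicate 1 (178) lies apart from the other controls.

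In the pattern recognition group, FCN1 (ENSG00000085265.11, chromosome 9, 134905890 to 134917963, GRCh38) rose. Its normalised reads were 86.6, 77.0 and 72.1 in the control libraries and 141, 121 and 130 in the SLC2A3 libraries. Every SLC2A3 library lay above every control. The means were 78.6 ± 7.37 and 131 ± 10.2 (SD, n = 3), a log2 fold change of 0.73 (SE 0.186, 95% interval 0.35 to 1.11, limma adjusted p = 0.0399). The call was narrow. Leaving out any 1 of the 6 libraries left a log2 fold change of 0.67 to 0.80 but lost the call, with limma adjusted p of 0.0517 to 0.159. A replicate block also lost it (adjusted p = 0.0506).

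The receptors of this group did not pass. TLR4, the lipopolysaccharide receptor, stood at 706, 692 and 722 normalised reads in the control libraries and 756, 782 and 750 in the SLC2A3 libraries, without overlap (log2 fold change 0.11, 95% interval -0.05 to 0.26). TLR2, the lipoprotein receptor, stood at 2034, 1922 and 1962 against 1847, 1920 and 1931, with overlapping groups. CD14, the co-receptor that passes lipopolysaccharide to TLR4, averaged 448 ± 30.9 and 420 ± 33.2 normalised reads. The ratio of TLR4 to TLR2 was 0.359 ± 0.0105 in the control group and 0.402 ± 0.0115 in the SLC2A3 group, without overlap (exact permutation p = 0.1, adjusted p = 0.3). LY96, the partner that TLR4 needs to bind lipopolysaccharide, was almost absent, at 4.72 ± 4.22 and 5.18 ± 1.96 normalised reads. Of 18 genes of the Toll-like receptor pathway tested by limma, 0 passed. edgeR and DESeq2, which gave an adjusted p to fewer genes of the further lists, also called 0. By limma 1 of the 18 had an unadjusted p under 0.05, against 11.8% of all genes. It was the shared adaptor MYD88 (log2 fold change -0.22, limma adjusted p = 0.179).

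The Fc receptors and the adaptors FCER1G and TYROBP had no called member. FCER1G, the γ chain that carries the ITAM for FCGR1A, stood at 4269, 4264 and 3993 normalised reads in the control libraries and 4361, 4294 and 4658 in the SLC2A3 libraries. TYROBP, the related adaptor also called DAP12, stood at 2259, 2099 and 2376 against 2286, 2305 and 2205. The groups did not overlap for FCER1G (log2 fold change 0.09, 95% interval -0.01 to 0.19) and overlapped for TYROBP (0.01, -0.10 to 0.13).

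FCGR1A, the high-affinity IgG receptor, stood at 905, 922 and 805 normalised reads in the control libraries and 746, 787 and 832 in the SLC2A3 libraries. FCGR2A, an activating low-affinity receptor, stood at 1631, 1512 and 1524 against 1298, 1499 and 1479. FCGR2B, its inhibitory relative, stood at 89.6, 37.0 and 60.1 against 95.6, 55.6 and 78.0. Only FCGR2A separated the groups, and its 95% interval of -0.26 to 0.01 included 0. FCGR2A was thus far more abundant than FCGR2B, whose ratio to it was 0.0402 ± 0.0152 and 0.0552 ± 0.0184 in normalised reads. FCGR1A shares 46.6% of its 50-base words with other genes, FCGR2B 33.7% and FCGR2A 26.2%, mostly with pseudogenes and FCGR2C, so these 3 values depend on how shared reads were assigned.

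Of 15 tested genes of Fc and ITAM signalling, 1 fell and 0 rose, against 0.8% of all genes called lower. Without adjustment 5 of the 15 had a p under 0.05 (11.8% of all genes), and the groups did not overlap for 9 (16.3% of all genes). Among genes at 1000 normalised reads or more in both groups, these shares were 26.2% and 29.8%. Most of this list lay at that level, namely SYK, LYN, BTK, FGR, LCP2, PIK3CD, PIK3R5, CARD9 and FCGRT. Of the 15, 12 had a log2 fold change below 0. The gene that fell was TREM2, a lipid-sensing receptor that signals through TYROBP. TREM2 stood at 1181, 1096 and 1143 normalised reads in the control libraries and 1008, 879 and 827 in the SLC2A3 libraries, without overlap. The log2 fold change of TREM2 was -0.34, past the threshold by limma (SE 0.076, adjusted p = 0.0147). It lost its call without empty vector replicate 1 or 3 and without SLC2A3 overexpression replicate 2 or 3, at adjusted p of 0.0556 to 0.170. edgeR and DESeq2 also called PIK3R5, a PI3-kinase regulator, which limma did not (log2 fold change -0.21, limma adjusted p = 0.0974). FCGR3A, FCGR3B and FCER1A had too few reads to be tested.

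The 3 β2 integrin members did not pass. ITGB2 stood at 48095, 47637 and 49029 normalised reads in the control libraries and 48517, 46212 and 48550 in the SLC2A3 libraries, a log2 fold change of -0.015 (95% interval -0.08 to 0.05). It alone made up 26.7% ± 0.427 of the members' summed normalised reads in the control group and 26.8% ± 0.710 in the SLC2A3 group. The α subunits were scarce beside it: ITGAX, which encodes CD11c, reached 8.17 TPM and ITGAM, which encodes CD11b, 3.58, against 712 for ITGB2. ITGAX stood at 537, 541 and 529 normalised reads against 571, 571 and 692, without overlap (log2 fold change 0.18, limma adjusted p = 0.425). ITGAM stood at 184, 178 and 210 against 231, 193 and 217, with overlap.

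Among 14 further integrin and adhesion genes, 3 fell and 0 rose, against 0.8% of all genes called lower, and 5.27% called in either direction among genes at 1000 normalised reads or more. Without adjustment 5 of the 14 had a p under 0.05, against 11.8% of all genes and 26.2% of genes at that level. TLN1, the cytoskeletal protein talin that activates integrins, stood at 31361, 30066 and 31468 normalised reads in the control libraries and 26663, 26526 and 26696 in the SLC2A3 libraries. This was a log2 fold change of -0.22 (SE 0.034, limma adjusted p = 0.000468), and TLN1 kept its call in all 16 alternatives run. ITGAL, the α subunit of LFA-1 and a partner of ITGB2, stood at 7346, 7202 and 7555 against 6776, 5642 and 6411 (log2 fold change -0.24, limma adjusted p = 0.0128). ITGA5, the fibronectin receptor subunit that pairs with ITGB1, stood at 10210, 10354 and 10356 against 9779, 8211 and 9247 (log2 fold change -0.19, limma adjusted p = 0.0453).

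The groups did not overlap for any of these 3. ITGAL lost its call without empty vector replicate 3 or SLC2A3 overexpression replicate 2 or 3, at adjusted p of 0.0603 to 0.103. ITGA5 kept its call in 8 of 16 alternatives. With all libraries kept, it lost the call with a pseudocount of 0.5 and with upper-quartile scaling. It also lost the call without each library but SLC2A3 overexpression replicate 1, and without both libraries numbered 2. Without SLC2A3 overexpression replicate 2 its log2 fold change was -0.12. Replicate 2 of the SLC2A3 group was the lowest library for ITGAL and ITGA5 and also the highest in RN7SL1, and a link between them was not tested. FERMT3, the kindlin that works with talin, had a log2 fold change of -0.11 (limma adjusted p = 0.208) and was called by DESeq2; that of ITGA4 was 0.09 (limma adjusted p = 0.591). Per length ITGAL, at 106 TPM, was well above ITGAX and ITGAM in this line.

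**Figure D4:**
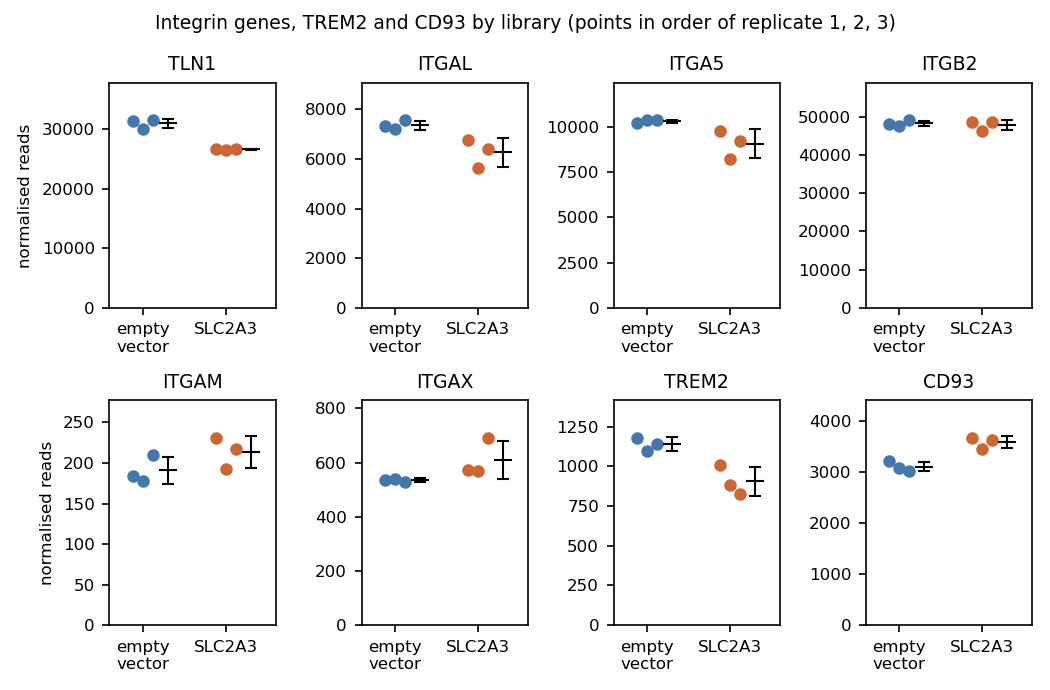
Normalised reads (y axis, from 0) of integrin genes, talin, TREM2 and CD93 in each library; points are replicates 1, 2 and 3 from left to right in each group and bars are mean ± SD (n = 3). TLN1, ITGAL, ITGA5 and TREM2 are lower and CD93 higher in every SLC2A3 library, while the points of ITGB2 and ITGAM overlap between groups.

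The inhibitory receptors had no called member by limma. SIRPA, the receptor for the don't-eat-me ligand CD47, stood at 5309, 5231 and 5490 normalised reads in the control libraries and 4869, 4736 and 5047 in the SLC2A3 libraries. The groups did not overlap, but the log2 fold change of -0.13 did not pass (SE 0.046, limma adjusted p = 0.197). DESeq2 on the recovered reads called it (adjusted p = 0.0426), as it did 8.62% of the genes to which it gave an adjusted p. SIRPA shares 13.4% of its 50-base words with other genes, chiefly SIRPB1. CD33, LILRB4 and LILRB1 had log2 fold changes of -0.05, 0.07 and -0.05, with overlapping groups, and LILRB4 exceeded LILRB1 4.35-fold and 4.73-fold in normalised reads in the empty vector and SLC2A3 groups. By limma 0 of 20 tested partners of these receptors passed. Without adjustment 4 of the 20 had a limma p under 0.05, against 11.8% of all genes. Among them was the lipid phosphatase INPP5D (log2 fold change -0.13, limma adjusted p = 0.0731). INPP5D was the only gene of this list that edgeR and DESeq2 called, and both gave an adjusted p to fewer genes of the further lists.

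The scavenger receptors did not pass. CD36, which takes up fatty acids and oxidised lipoproteins, stood at 5938, 5837 and 5665 normalised reads in the control libraries and 5405, 5838 and 5810 in the SLC2A3 libraries. CD163, the haemoglobin scavenger, stood at 178, 89.0 and 107 against 158, 175 and 162 (log2 fold change 0.46, 95% interval 0.07 to 0.86, limma adjusted p = 0.304). Empty vector replicate 1 was the highest of all libraries for CD163, and without it the log2 fold change was 0.75 (limma adjusted p = 0.0341). Without empty vector replicate 2, the lowest library, it was 0.25 (adjusted p = 0.676), and without both libraries numbered 2 it was 0.21 (adjusted p = 0.765). Of 14 tested scavenger and uptake genes 1 rose, against 0.692% of all genes called higher. Without adjustment 2 of the 14 had a limma p under 0.05, against 11.8% of all genes. The gene that rose was CD93, a C-type lectin-domain receptor of the cell surface. CD93 stood at 3209, 3079 and 3029 normalised reads against 3673, 3452 and 3634, without overlap (log2 fold change 0.21, SE 0.050, limma adjusted p = 0.0272). It lost its call without empty vector replicate 2 or 3, without SLC2A3 overexpression replicate 1 or 3 and, narrowly, with a replicate block (adjusted p = 0.0500353).

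Of the lysosomal and killing effectors, LYZ and CSTA came closest to the threshold. LYZ stood at 11216, 10027 and 10469 normalised reads in the control libraries and 9906, 9826 and 9694 in the SLC2A3 libraries (log2 fold change -0.11, limma adjusted p = 0.282). CSTA, an inhibitor of cysteine proteases, stood at 6393, 6188 and 5879 against 6644, 6608 and 6826 (log2 fold change 0.12, limma adjusted p = 0.217). Neither overlapped between groups. CTSS, a cysteine protease of antigen processing, averaged 1899 ± 94.6 and 1921 ± 56.5 normalised reads. The ratio of CTSS to CSTA was 0.309 ± 0.0142 in the control group and 0.287 ± 0.00574 in the SLC2A3 group, without overlap (exact permutation p = 0.1, adjusted p = 0.3). CD68 and MPEG1 had 95% intervals of -0.99 to 0.44 and -0.74 to 1.06, too wide to tell a change from none at this depth. By limma 0 of 22 lysosomal genes passed, and 3 reached an unadjusted p below 0.05, against 11.8% of all genes. The protease gene CTSD was nearest (log2 fold change 0.15, limma adjusted p = 0.0667), and edgeR and DESeq2 called it.

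The remaining members did not pass. CD4, which monocytes share with T helper cells, stood at 8604, 8619 and 8526 normalised reads in the control libraries and 8030, 8108 and 8455 in the SLC2A3 libraries (log2 fold change -0.07, 95% interval -0.15 to 0.02). CD86, the co-stimulatory ligand of CD28, averaged 221 ± 37.7 and 220 ± 32.9 with overlap. MNDA, a nuclear protein of myeloid cells, stood at 8065, 7616 and 7650 against 7365, 8093 and 7580. AIF1, MS4A7, the matrix proteoglycan gene VCAN and the galectin gene LGALS3 overlapped between groups, with log2 fold changes of -0.03, -0.0056, 0.05 and 0.17.

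Across the libraries the members shared no common order. Each library was the highest for 3 to 7 of the 35 members and the lowest for 1 to 9. The summed level of the 36 members was 6179, 6156 and 6128 TPM in the control libraries and 6011, 5968 and 5999 in the SLC2A3 libraries. The groups did not overlap, and most of the sum came from NCF4, ITGB2, CYBA, LYZ and CSTA. Of the 9 ratios between member pairs, 3 did not overlap between groups (NCF4 to NCF1, TLR4 to TLR2 and CTSS to CSTA), and none could pass, since 3 against 3 libraries cannot go below an exact p of 0.1.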

How the data were processed

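The authors deposited 1 file per library with a normalised signal per gene, which the values show to be read counts divided by 1 factor per library. Dividing each library by its lowest value above 0 gave whole reads for 100% of values, within 0.001 reads, and the factors, 0.936 to 1.08, equalled median-of-ratios size factors. BWA, TopHat2 and hg38 appear, without roles, in the submitters' processing notes. Annotation, counter and use of strand are not given in the sources used here. Symbols came from a gene name table, coordinates, lengths and sequences from GENCODE 29 (GRCh38); TPM was computed here from these values and merged exon lengths (58429 IDs).

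Main test: limma 3.58.1 in R 4.3.3, trend, log2(value + 1), group only, keeping genes that reached a value of 1 in 3 or more libraries. Fold changes on this scale understate low genes. Alternatives used edgeR 4.0.16 and DESeq2 1.42.0 on recovered reads, other filters, pseudocounts and scalings, a replicate block and left-out libraries. The plan's protein sequences were not analysed here. Members and lists were chosen with earlier results of these data known. All members are accounted for; values per library are given for members with an unadjusted p under 0.05, the highest of each role, and all Fc and oxidase members; of the other lists, called genes are named, and any further gene was chosen after its values were seen. On counts simulated for this comparison over 27049 genes, limma found 64% of the 100 genes altered 1.5-fold and 78% of the 100 altered 2-fold, and 4 of its 146 calls were false. The altered genes were all raised, and genes with the lowest means were not among them. No change smaller than 1.5-fold, such as that of NCF1, was simulated. Replicates differed by more than sampling noise (chi-square per gene 3.50 to 6.78). Same-numbered replicates did not deviate together.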

Additional observations from a re-analysis of the deposited data

How the results depend on the processing

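SLC2A3 stayed past the threshold in all 16 alternatives, at 1.68 to 1.74. NCF1 kept its call in 15 of 16, losing it without SLC2A3 overexpression replicate 3. FCN1 lost its call with a pseudocount of 5 (0.70), with a replicate block (0.73) and without both libraries numbered 2 (0.77), and without any 1 library (0.67 to 0.80). DESeq2 gave it no adjusted p. The members called, 2 in all, were 1 with a pseudocount of 5, 1 with a replicate block, 1 without both libraries numbered 2, and 0 to 2 without 1 library. Over all genes, 418 were called, 804 by DESeq2, 613 by edgeR and 188 to 466 without 1 library. Called genes of the related lists, 5 in all, numbered 8 by edgeR, 9 by DESeq2 and 1 to 5 without 1 library. The cause of these changes was not tested, beyond fewer samples where libraries were left out.

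No called gene reversed. Members near 0 changed sign without both libraries numbered 2, namely TYROBP (-0.045), LILRB1 (0.019) and CYBB (-0.0058). Without 1 library the lowest and highest values spanned 0 for CD36 (-0.053 to 0.0029), TYROBP (-0.032 to 0.057), ITGB2 (-0.027 to 0.0084), LILRB1 (-0.10 to 0.0070), CD86 (-0.12 to 0.12), CYBB (-0.0077 to 0.050), MPEG1 (-0.069 to 0.47), CTSS (-0.016 to 0.055), MNDA (-0.057 to 0.011) and MS4A7 (-0.052 to 0.048). The same held for the ratios CYBB to CYBA (-0.11 to 0.021), ITGAX to ITGAM (-0.057 to 0.13) and FCER1G to TYROBP (-0.0011 to 0.14). Deviations of same-numbered samples correlated at -0.048, -0.0050 and -0.0070 over 16259 genes. These correlations cannot show whether the samples were paired, and the labels do not say. Leaving out both libraries numbered 2 was chosen after seeing the data. Low read numbers limit CLEC7A, MPEG1, CD68 and FCGR2B.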
